A study of Mus musculus with 7 samples.

Results

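Ctla2a, Ctla2b, Pla2g10, Il13ra2, S100g and Trpv6 are 6 of the 23282 rows of gene symbols measured in mouse uterus after intra-uterine infusion of the chemokine CXCL12. Ctla2a, Pla2g10, Il13ra2 and S100g were selected on these same libraries, because they were among the largest rises at Day 8 against saline. Ctla2b was added as the close relative of Ctla2a, and Trpv6 as the channel that works with S100g. The Day 8 values of all 6 genes against saline are therefore given as a description, without a test. Each gene symbol was found on 1 row of every table.

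Uterine RNA was read by QuantSeq, which sequences the 3′ end of polyadenylated transcripts, in 7 libraries. C57BL/6 females, 6 weeks old, received 100 ng of recombinant human CXCL12 in 30 µl of saline in one uterine horn and saline alone in the opposite horn. The 2 saline libraries carry no day in their labels, 2 libraries are from Day 3 after CXCL12 and 3 libraries are from Day 8. No genotype or hormone treatment is given for these animals in the sources used here, nor the stage of the oestrous cycle. Saline replicates 1 and 2 held 6908790 and 9491691 counts, and Day 3 replicate 2 held 9968909. Day 8 replicates 1, 2 and 3 held 9601312, 12308982 and 9941132 counts. Day 3 replicate 1 was deposited as log2 values of normalized counts, so its depth is unknown and its levels carry no counting interval. Levels are given in CPM, counts relative to the total of the library, scaled between libraries by TMM, the trimmed mean of M values. Differences on the log2 scale are given with their standard error (SE).

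The library labelled Day 8 replicate 1 stood apart from the other Day 8 libraries before any of the 6 genes was considered. The name of its table carries Day 3, while its label says Day 8, and it was placed by its label. Across genes, its profile correlated with Day 3 replicates 1 and 2 at a Pearson r of 0.949 and 0.952. With saline replicates 1 and 2 the r was 0.894 and 0.941. Its correlation with Day 8 replicates 2 and 3 was 0.894 and 0.901, and those replicates correlated with each other at 0.936. Genes are not independent replicates, so these values only describe how alike the libraries were. The Day 8 levels of the 6 genes are therefore given library by library, while fitted fold changes and list medians cover all 3 Day 8 libraries unless said otherwise. Nothing in the labels says that the libraries of a group came from separate animals, so the p-values below measure the spread between these libraries, which may be technical.

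The uterine epithelium and its glands secrete proteins, lipids and ions into the lumen under the control of oestrogen and progesterone, and the 6 genes belong to several branches of that work. CTLA-2α and CTLA-2β, the products of Ctla2a and Ctla2b, resemble the propeptide of cathepsins, and CTLA-2α inhibits cathepsin L. Pla2g10 encodes a secreted phospholipase A2 that releases fatty acids, arachidonic acid among them, from phospholipids. Il13ra2 encodes a receptor that binds interleukin-13 with high affinity and is often described as a decoy. S100g encodes calbindin-D9k, which carries calcium through the cytosol of epithelial cells, and Trpv6 encodes the apical channel through which that calcium enters. Il13ra2 is known as a gene induced by progesterone in mouse uterus, and S100g and Trpv6 as hormone-regulated genes there.

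Ctla2a and Ctla2b lie on the minus strand of chromosome 13 in GRCm38, at chr13:60934155-60936625 and chr13:60895350-60897447, with 36707 bases between them. The 300 bases around their annotated starts (for Ctla2a the upstream one of 2), 250 before and 50 from the start on, are shown because the pair was high in the same libraries. They are shown 5′ to 3′ on the minus strand from the RefSeq sequences of GRCm38.p6, at chr13:60936576-60936875 and chr13:60897398-60897697. Capitals mark the letters TGTTCT, a half-site known for glucocorticoid and progesterone receptors, and TATAAA, the core of a TATA box.
Ctla2a: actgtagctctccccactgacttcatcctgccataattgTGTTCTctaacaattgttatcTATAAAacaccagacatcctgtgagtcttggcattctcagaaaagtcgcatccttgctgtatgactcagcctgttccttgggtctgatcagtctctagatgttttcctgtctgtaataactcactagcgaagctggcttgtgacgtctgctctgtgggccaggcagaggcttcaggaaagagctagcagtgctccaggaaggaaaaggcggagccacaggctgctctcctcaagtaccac
Ctla2b: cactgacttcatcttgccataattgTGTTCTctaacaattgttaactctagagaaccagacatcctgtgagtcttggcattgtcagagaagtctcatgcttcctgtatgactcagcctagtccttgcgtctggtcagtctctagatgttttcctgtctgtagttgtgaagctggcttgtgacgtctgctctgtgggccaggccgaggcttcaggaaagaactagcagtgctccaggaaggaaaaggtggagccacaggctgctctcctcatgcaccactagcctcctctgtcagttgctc
In the alignment of these windows, 255 of 278 bases were identical (91.7%). Both windows hold TGTTCT, 211 bases before the annotated start in Ctla2a and 225 bases before it in Ctla2b. TATAAA was found in the window of Ctla2a, 190 bases before the start, and not in that of Ctla2b.

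S100g lies on the minus strand at chrX:162961992-162964599 and Trpv6 on the minus strand at chr6:41620624-41636405. Their windows are shown because the products of the pair work in one calcium route while their levels, given below, had different patterns. The windows lie at chrX:162964550-162964849 and chr6:41636356-41636655 and are written on the minus strand with the same marks, where AGAACA is TGTTCT read on the opposite strand.
S100g: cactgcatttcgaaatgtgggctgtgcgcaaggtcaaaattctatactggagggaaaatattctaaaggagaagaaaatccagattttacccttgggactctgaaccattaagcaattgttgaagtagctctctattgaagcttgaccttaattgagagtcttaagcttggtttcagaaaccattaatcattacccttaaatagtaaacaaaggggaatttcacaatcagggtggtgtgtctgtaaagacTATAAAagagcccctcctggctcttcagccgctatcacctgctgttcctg
Trpv6: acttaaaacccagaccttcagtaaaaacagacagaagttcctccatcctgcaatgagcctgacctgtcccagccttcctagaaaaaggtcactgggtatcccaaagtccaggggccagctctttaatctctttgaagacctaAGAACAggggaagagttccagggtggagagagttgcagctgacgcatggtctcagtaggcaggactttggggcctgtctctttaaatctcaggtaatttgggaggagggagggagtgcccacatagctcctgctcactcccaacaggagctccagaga
In S100g, TATAAA begins at the annotated start itself, and in Trpv6 the half-site lies 108 bases before it. Il13ra2, at chrX:147383476-147429192, holds TATAAA in its window 248 and 31 bases before the start, and Pla2g10, at chr16:13715057-13730983, holds none of the letters searched. TATAAA occurs in 13.6% and TGTTCT in 19.0% of the 32851 promoters of this length in the table, on either strand. None of the 6 genes holds the palindrome GGTCANNNTGACC of the oestrogen receptor, found in 0.07% of promoters, or GNACANNNTGTNC of the progesterone receptor, found in 0.475%, whose second arm can overlap the first 5 letters of TGTTCT. The direct repeats GGTTCANNNGGTTCA and AGGTCANNNAGGTCA of the vitamin D receptor, each found in 0.00609% of promoters, were not found either. These matches describe letters in these windows and are not evidence of a binding site.

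Ctla2a differed from saline at Day 8 in a pair of libraries. Its level was 207 and 155 CPM in saline replicates 1 and 2 and 245 and 242 CPM in Day 3 replicates 1 and 2. It was 213 CPM in Day 8 replicate 1, 6489.7 CPM in replicate 2 and 7969 CPM in replicate 3. Day 8 replicates 2 and 3 were far above all other libraries, while Day 8 replicate 1 lay among the saline and Day 3 libraries. In Day 8 replicates 2 and 3, 0.631% and 0.774% of all counts came from this gene. The mean of those replicates was 39.9 times the saline mean, whereas Day 8 replicate 1 was 1.17 times the saline mean. With all 3 Day 8 libraries, the group mean was 4890.5 ± 4118 CPM (SD, n = 3) against 181 ± 36.4 CPM in saline (SD, n = 2), and the fitted log2 fold change was 4.73 (SE 1.38). The 95% exact binomial interval of Day 8 replicate 1, 203 to 222 CPM, overlapped that of saline replicate 1, 197 to 217 CPM, and such intervals cover counting error only. After quantile normalization Day 8 replicate 1 was below saline replicate 1, at 11.17 against 11.36 on the log2 scale.

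Ctla2b followed the same pattern. Its level was 10.3 and 15.4 CPM in saline replicates 1 and 2, 18.8 and 16.03 CPM in Day 3 replicates 1 and 2, and 14.6, 281 and 351 CPM in Day 8 replicates 1, 2 and 3. Day 8 replicate 1 lay within the range of the saline libraries, and the other Day 8 libraries were above everything else. The mean of Day 8 replicates 2 and 3 was 24.6 times the saline mean, against 1.14 times in Day 8 replicate 1. The fitted log2 fold change over all 3 Day 8 libraries was 4.04 (SE 1.22).

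**Figure D1:**
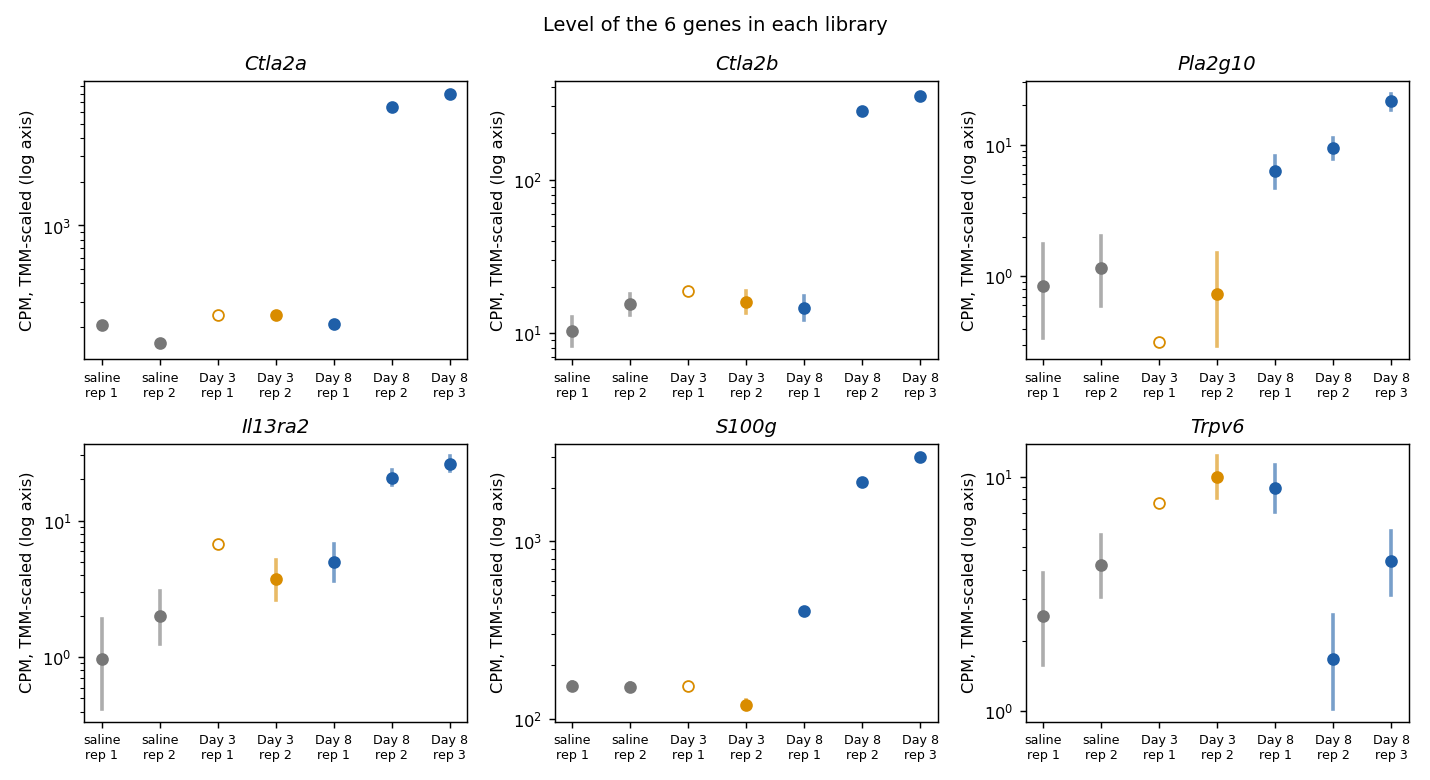
Level of each of the 6 genes in CPM scaled by TMM, on a logarithmic axis, in the 7 libraries (grey saline, orange Day 3, blue Day 8). Vertical lines are 95% exact binomial intervals, and the open circle is Day 3 replicate 1, which has none. Ctla2a and Ctla2b are high in Day 8 replicates 2 and 3 alone. In Day 8 replicate 1, Pla2g10, Il13ra2, S100g and Trpv6 lie above both saline libraries beyond their counting intervals. Trpv6 is at 1.67 CPM, its lowest level, in Day 8 replicate 2.

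Because the pair is alike in sequence, the share of Ctla2b among the counts of both genes was compared between libraries. The transcripts Ctla2a-201 and Ctla2b-201 were identical at 745 of 839 aligned bases (88.8%). None of the 451 words of 50 bases in the last 500 bases of Ctla2a-201, the stretch that a 3′ assay reads, occurred in Ctla2b-201. Ctla2b made up 4.73% (95% exact binomial interval 3.79 to 5.81) of the pair in saline replicate 1 and 9.01% (7.73 to 10.4) in saline replicate 2. The share was 7.14% in Day 3 replicate 1 and 6.20% (5.28 to 7.22) in replicate 2. In Day 8 replicates 1, 2 and 3 it was 6.45% (5.40 to 7.63), 4.15% (4.01 to 4.29) and 4.22% (4.08 to 4.36). The saline libraries differed from each other by more than their counting intervals, and the share in Day 8 replicates 2 and 3 lay below both, within the interval of saline replicate 1. The authors counted reads with multiple alignments, so reads that fit both genes may have been counted for each, and whether this set part of the Ctla2b level was not tested. With the counts of both genes added, the fitted log2 fold change was 4.69.

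**Figure D2:**
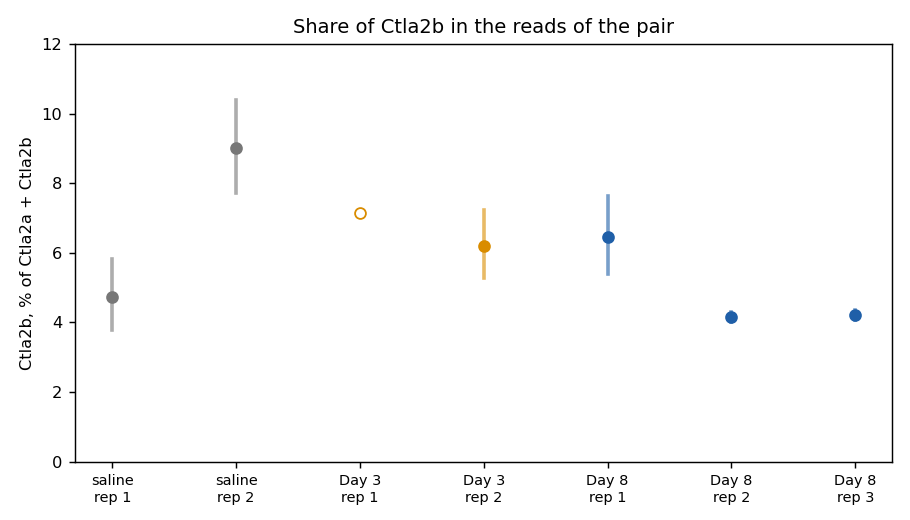
Ctla2b as a percentage of the counts of Ctla2a and Ctla2b together in each library (grey saline, orange Day 3, blue Day 8), with 95% exact binomial intervals where counts exist (open circle, Day 3 replicate 1). The share spans 4.15% to 9.01%, and its 2 lowest values are those of Day 8 replicates 2 and 3.

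Pla2g10 differed from saline most evenly across the Day 8 libraries. It was close to the limit of detection elsewhere, with 7 and 12 counts in saline replicates 1 and 2 and 7 counts in Day 3 replicate 2, or 0.846, 1.15 and 0.728 CPM. In Day 3 replicate 1 it was 0.317 CPM. In Day 8 replicates 1, 2 and 3 it had 54, 112 and 205 counts, or 6.28, 9.37 and 21.2 CPM. All Day 8 libraries lay above all others. The fold over the saline mean was 6.30 in Day 8 replicate 1 and 15.3 in the mean of replicates 2 and 3. The fitted log2 fold change over all 3 Day 8 libraries was 3.58 (SE 0.71), and 2.93 without Day 8 replicate 3.

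Il13ra2 had 8 and 21 counts in saline replicates 1 and 2, or 0.966 and 2.01 CPM. It was 6.69 and 3.75 CPM in Day 3 replicates 1 and 2 and 4.999, 20.7 and 26.1 CPM in Day 8 replicates 1, 2 and 3. Every CXCL12 library was above both saline libraries, and Day 8 replicate 1 lay between the Day 3 libraries. The fold over the saline mean was 3.36 in Day 8 replicate 1 and 15.7 in the mean of replicates 2 and 3. The fitted log2 fold change over all 3 Day 8 libraries was 3.49 (SE 0.81), and 4.12 without saline replicate 2.

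S100g was nearly equal in the saline libraries, at 153 and 151 CPM, from 1267 and 1581 counts. It was 153 and 120.2 CPM in Day 3 replicates 1 and 2, and 403, 2157 and 2978 CPM in Day 8 replicates 1, 2 and 3. All Day 8 libraries were above all others, with Day 8 replicate 1 much closer to saline than the others were. The fold over the saline mean was 2.65 in Day 8 replicate 1 and 16.9 in the mean of replicates 2 and 3. The fitted log2 fold change over all 3 Day 8 libraries was 3.58 (SE 0.82).

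Trpv6, the channel partner of S100g, did not follow it. Its counts were 21 and 44 in saline replicates 1 and 2, or 2.54 and 4.21 CPM. It was 7.71 and 9.99 CPM in Day 3 replicates 1 and 2, and 8.95, 1.67 and 4.35 CPM in Day 8 replicates 1, 2 and 3. Its highest levels were in the Day 3 libraries and Day 8 replicate 1, whereas Day 8 replicate 2 was below both saline libraries and Day 8 replicate 3 just above the higher of them. The fold over the saline mean was 2.65 in Day 8 replicate 1 and 0.893 in the mean of replicates 2 and 3. The fitted log2 fold change was 0.54 (SE 0.73), and it changed sign to -0.20 without Day 8 replicate 1.

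In the order of group means, Day 8 was highest for Ctla2a, Ctla2b, Pla2g10, Il13ra2 and S100g. Day 3 and saline overlapped for S100g. For Ctla2b, the lower Day 3 library was 16.03 CPM against 15.4 CPM in the higher saline library, a gap within their counting intervals. Trpv6 was highest at Day 3, at 8.85 ± 1.61 CPM (SD, n = 2), against 4.99 ± 3.68 CPM at Day 8 (SD, n = 3) and 3.37 ± 1.18 CPM in saline (SD, n = 2), and the Day 8 libraries spanned both other groups. In each of the 6 genes, the SD relative to the mean was larger at Day 8 than in either other group.

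The 6 genes were then placed among all genes tested at Day 8. All 3 Day 8 libraries were above both saline libraries in 9.74% of the 15388 genes tested, among them 4 of the 6 genes, all but Ctla2b and Trpv6. Ctla2a counts here by a margin within counting error, and the libraries overlap under library totals without TMM or after quantile normalization. Since those levels chose the genes, nothing is read from this count. The next ranking repeats the choice of the genes and tests nothing, its limit on P serving only to define the genes ranked. By fitted log2 fold change among 247 genes with that order, a Day 8 mean of at least 10 CPM and an unadjusted P under 0.05, Ctla2a came first at 4.73, although by limma after quantile normalization it was 3.425, below 3.491 for Pla2g10. Guca2b, which encodes the peptide uroguanylin and is not one of the 6 genes, came next at 4.72. Pla2g10, S100g and Il13ra2 followed at 3.58, 3.58 and 3.49. The first gene below them was Sult1d1, a sulfotransferase, at 3.13, followed by the keratin gene Krt23 at 3.03. The order of libraries required here left out genes with larger fitted rises whose level in Day 8 replicate 1 was not above saline. Among them were the gland genes Spink1 and Prss29, described below, at log2 fold changes of 11.4 and 10.8.

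Day 3 libraries took no part in choosing the 6 genes, although the saline libraries they were compared with did. By limma on quantile-normalized log2(normalized count + 1) values of all 7 libraries, Il13ra2 alone among the 6 passed a 2-fold change at a P of 0.05 before adjustment. Its quantile-normalized levels were 3.41 and 4.43 in saline replicates 1 and 2, against 6.29 and 5.46 in the Day 3 libraries. The difference was 1.96 (SE 0.78), with an unadjusted limma P of 0.0364 and a Benjamini-Hochberg adjusted p of 0.617 over 14974 genes, and it was higher in both Day 3 libraries. The call before adjustment was lost with an unadjusted P of 0.058 by edgeR on estimated counts, 0.0787 without the filter on low values and 0.1 with library size scaling only. It was also lost without Day 3 replicate 1 and without saline replicate 1. With the saline and Day 3 libraries alone, the limma P of Il13ra2 was 0.0202, with an adjusted p of 0.615. The P of 0.0364 rests on a variance from all 7 libraries, including the Day 8 libraries that chose Il13ra2. Both values rest on the saline libraries that also chose it, so nothing is concluded from them. Trpv6 was also above both saline libraries in both Day 3 libraries, by 1.48 (SE 0.78), with a limma P of 0.0934 and an adjusted p of 0.617. Its P was 0.0168 with Day 8 replicate 1 counted with Day 3 and 0.0153 with the saline and Day 3 libraries alone, where it was called before adjustment. The background share of genes called higher at Day 3 was 2.02%, and 2.68% were called lower. No gene passed an adjusted p of 0.1 by limma, where 1126 genes had an unadjusted P under 0.05. Without saline replicate 2, 1947 genes passed it, and 36 did without the filter on low values.

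The other 4 genes differed by less than 2-fold at Day 3 in this fit. Its standard errors come from all 7 libraries, including the Day 8 libraries that chose the genes, so nothing is read from their size. With the saline and Day 3 libraries alone, the limma P was 0.483 for Ctla2a, 0.189 for Ctla2b, 0.597 for Pla2g10 and 0.159 for S100g. The limma difference was 0.21 (SE 1.46) in Ctla2a, with an adjusted p of 0.963, and 0.48 (SE 1.30) in Ctla2b, with an adjusted p of 0.904. It was -0.41 (SE 0.67) in Pla2g10, with an adjusted p of 0.833, and -0.38 (SE 0.76) in S100g, with an adjusted p of 0.865. Pla2g10 had few counts outside Day 8, and how large a fall could be detected at this depth was not tested. In CPM, Ctla2a, Ctla2b, Il13ra2 and Trpv6 were above both saline libraries in both Day 3 libraries, an order found in 25.4% of the genes tested. Pla2g10 was below both, as were 23.3% of genes. Ctla2a loses this order after quantile normalization, where saline replicate 1 is the highest of the 4 libraries.

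**Figure D3:**
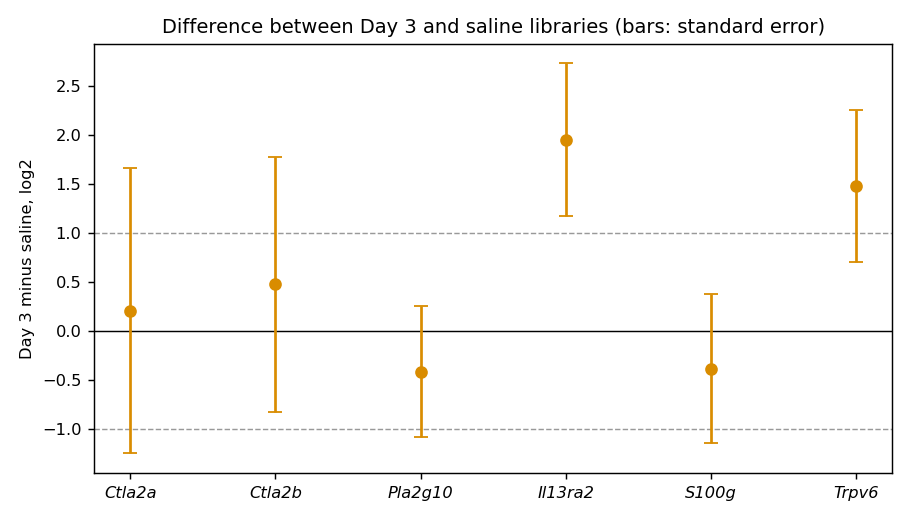
Difference between the 2 Day 3 and the 2 saline libraries for each gene, on the quantile-normalized log2 scale. Bars are 1 standard error from limma on all 7 libraries. Dashed lines mark a fold change of 2. Il13ra2, at 1.96, and Trpv6, at 1.48, are above the upper dashed line, and the bars of the other 4 genes cross 0.

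Set side by side on this log2 scale, Day 8 exceeded Day 3 by 3.90 (SE 0.62) in Pla2g10, 3.27 (SE 0.70) in S100g and 3.22 (SE 1.33) in Ctla2a. The difference was 2.70 (SE 1.19) in Ctla2b and 1.41 (SE 0.71) in Il13ra2. Trpv6 was lower at Day 8 than at Day 3, by a difference of -1.21 (SE 0.71). These differences use the Day 8 libraries that chose the genes and are given without a test.

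The cathepsins were measured next, a group of lysosomal proteases that holds the cysteine proteases whose propeptide CTLA-2 proteins resemble, along with serine and aspartic proteases. At Day 8 by edgeR's quasi-likelihood test, 235 of the 15388 genes were called higher (1.53%) and 218 lower (1.42%), a call being a 2-fold change at a P of 0.05 before adjustment. None passed an adjusted p of 0.1, where 658 genes had an unadjusted P under 0.05 and DESeq2 called 49 by its adjusted p. All list genes called at Day 8 therefore have an adjusted p of 0.956 by edgeR with Benjamini-Hochberg adjustment, and those called at Day 3 an adjusted p of 0.617 by limma. Of 13 cathepsin genes tested, none was called higher at Day 8 and Ctss, the cathepsin S of antigen-presenting cells, was called lower. Ctss was 345 and 222 CPM in saline replicates 1 and 2 and 64.6, 160.0 and 154 CPM in Day 8 replicates 1, 2 and 3, a log2 fold change of -1.19 (SE 0.43). Ctsl, cathepsin L, was 233 and 331 CPM in saline and 150.2, 357 and 245 CPM in Day 8 replicates 1, 2 and 3, with overlapping groups and a log2 fold change of -0.20 (SE 0.40). Ctsb was 426 and 528 CPM in saline and 419, 683 and 1010.0 CPM in Day 8 replicates 1, 2 and 3. At Day 3, Ctsk, known from bone resorption, rose by 1.15 (SE 0.30), while Ctss fell by 1.79 (SE 0.49) and Ctsa, a serine carboxypeptidase, fell by 1.18 (SE 0.46) on the log2 scale. The median log2 difference of the 13 genes was 0.22 at Day 8 and -0.74 at Day 3, beside -0.008 and 0.015 over all genes. Without Day 8 replicate 1, 2 cathepsins were called higher and none lower at Day 8, against 3.44% and 3.25% of all genes.

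Among the cystatins and serpins that inhibit cathepsins by other means, none of the 6 genes tested was called in either comparison. Cst3, the most abundant of them, was 311 and 565 CPM in saline and 579, 750.1 and 772 CPM in Day 8 replicates 1, 2 and 3. All Day 8 libraries were above both saline libraries, a log2 fold change of 0.66 (SE 0.35).

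The phospholipase A2 and arachidonate genes around Pla2g10 were then examined. None of 17 tested was called at Day 8, beside 1.53% and 1.42% of all genes, 1 was called by limma after quantile normalization, and their median log2 fold change was 0.30. Pla2g4a, the cytosolic enzyme that frees arachidonic acid inside cells, was 37.6 and 41.4 CPM in saline and 31.0, 25.8 and 42.5 CPM in Day 8 replicates 1, 2 and 3, a log2 fold change of -0.28 (SE 0.31). The secreted enzymes' receptor gene Pla2r1 was 36.7 and 8.99 CPM in saline and 5.81, 16.7 and 18.2 CPM in Day 8 replicates 1, 2 and 3. Ptgs1, a cyclooxygenase that makes prostaglandins from arachidonic acid, was 19.8 and 23.4 CPM in saline and 17.7, 13.04 and 16.6 CPM at Day 8. Its relative Ptgs2 was under 1 CPM in every library except Day 8 replicate 3, where it was 2.17 CPM. Alox15 and Alox12, lipoxygenases that oxidize arachidonic acid, are named here after their values were seen. Alox15 was 34.6 and 33.7 CPM in saline and 23.7, 96.2 and 222 CPM in Day 8 replicates 1, 2 and 3, and Alox12 was 2.29 and 4.31 CPM in saline and 3.60, 12.96 and 11.1 CPM. Both were highest in Day 8 replicates 2 and 3 without passing the test, at log2 fold changes of 1.72 and 1.45. At Day 3, Pla2g4c was called lower of 15 genes tested, beside 2.68% of all genes. It went from 2.78 and 4.88 CPM in saline to 0 counts in Day 3 replicate 2 and a value near 0 in replicate 1. Without Day 8 replicate 1, 2 of the 17 genes were called higher and 1 lower at Day 8, beside 3.44% and 3.25% of all genes.

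For Il13ra2, the ligands were at or near 0. Il13 was listed at 0 counts in all 6 libraries with counts and at 0.301 CPM in Day 3 replicate 1, and Il4 did not exceed 0.725 CPM in any library. Il13ra1 and Il4ra, which form the signalling receptor for interleukin-13, were 24.4 and 32.0 CPM and 61.6 and 99.4 CPM in saline replicates 1 and 2. In Day 8 replicates 1, 2 and 3, Il13ra1 was 32.2, 20.1 and 24.7 CPM, and Il4ra was 71.3, 87.6 and 108 CPM. Neither passed the test, with log2 fold changes of -0.16 (SE 0.32) and 0.13 (SE 0.33). Stat6, the transcription factor downstream of that receptor, was 59.3 and 34.4 CPM in saline and 33.6, 38.2 and 30.7 CPM at Day 8.

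Of the 21 genes of interleukin-4 and interleukin-13 signalling tested, Socs1 was called higher at Day 8, beside 1.53% of all genes. Socs1, an inhibitor of cytokine signalling, was 3.14 and 2.39 CPM in saline and 5.81, 6.44 and 7.87 CPM at Day 8. All Day 8 libraries, replicate 1 included, were above both saline libraries. At Day 3, Socs1 rose by 1.64 (SE 0.39) and the eosinophil chemokine gene Ccl11 rose by 4.00 (SE 0.72), while the kinase gene Jak1 fell by 1.00 (SE 0.40). The median of the list was 0.05 at Day 8 and 0.06 at Day 3. Without Day 8 replicate 1, 3 of these genes were called higher at Day 8, beside 3.44% of all genes.

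Other genes of the calcium route were also tested. Of 26 genes of calcium transport and vitamin D tested, 1 was called higher and none lower at Day 8, beside 1.53% and 1.42% of all genes. Their median log2 fold change was -0.05. The gene called was Slc8a3, a sodium-calcium exchanger, at 0.242 and 0.0957 CPM in saline and 0.698, 1.59 and 2.59 CPM in Day 8 replicates 1, 2 and 3, a low gene throughout. Trpv5, the other epithelial calcium channel, had no counts in the saline and Day 8 libraries. Calb1, calbindin-D28k, was 74.7 and 92.5 CPM in saline and 79.4, 95.8 and 139 CPM at Day 8, a log2 fold change of 0.30 (SE 0.33). Vdr, the vitamin D receptor, was 2.54 and 1.44 CPM in saline and 1.63, 7.19 and 8.08 CPM in Day 8 replicates 1, 2 and 3. Day 8 replicate 1 lay within the saline range and the other Day 8 libraries above it, and the log2 fold change of 1.49 (SE 0.78) did not pass. The calcium pump gene Atp2b1 was 620 and 368 CPM in saline and 335, 292 and 347 CPM at Day 8. Slc8a1, another exchanger, was 73.6 and 36.6 CPM in saline and 27.7, 51.5 and 59.1 CPM at Day 8. At Day 3, Slc8a3 rose by 2.40 (SE 0.97) and the Golgi calcium pump gene Atp2c2 rose by 2.25 (SE 0.55). Of the 26 genes, 3 were called higher and none lower at Day 8 without Day 8 replicate 1, beside the same 3.44% and 3.25%.

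Among 11 other S100 genes tested at Day 8, none was called higher, and S100a8 and S100a9 were called lower, beside 1.53% and 1.42% of all genes. Their products form calprotectin, a protein of neutrophils. S100a9 was 28.8 and 64.0 CPM in saline, 8.55 and 4.37 CPM at Day 3 and 8.25, 6.19 and 6.01 CPM at Day 8. S100a8 was 20.9 and 70.6 CPM in saline, 5.67 and 4.37 CPM at Day 3 and 16.04, 4.01 and 4.76 CPM at Day 8. Both genes were lower in every CXCL12 library than in either saline library. S100a6 was 477 and 572 CPM in saline and 749, 780 and 901 CPM at Day 8, a log2 fold change of 0.61 (SE 0.27) that did not pass. S100a11 was 307 and 353 CPM in saline and 440, 369 and 470 CPM at Day 8. The median log2 fold change of the 11 genes was 0.35 at Day 8. With Day 8 replicate 1 left out, 1 of them was called higher and 3 lower, beside 3.44% and 3.25% of all genes.

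Genes known to respond to ovarian hormones were examined next. Of 17 progesterone-responsive genes tested at Day 8, 4 were called higher and none lower, beside 1.53% and 1.42% of all genes, and their median log2 fold change was 1.40. Cyp26a1, which degrades retinoic acid, was 2.05 and 7.56 CPM in saline, 4.02 and 7.49 CPM at Day 3 and 6.16, 69.1 and 168 CPM in Day 8 replicates 1, 2 and 3. Hdc, which makes histamine, was 90.4 and 81.2 CPM in saline and 93.6, 200.5 and 394 CPM at Day 8. Lrp2, an endocytic receptor of epithelia, was 0.966 and 7.56 CPM in saline and 8.37, 22.4 and 71.2 CPM at Day 8. Calca, the calcitonin gene, had 0 and 0.191 CPM in saline and 0.116, 5.10 and 5.18 CPM at Day 8. In Cyp26a1, Hdc and Calca, Day 8 replicate 1 was close to saline as it was for Ctla2a. The summed level of the list was 2086 and 962.6 CPM in saline, 948 and 1048 CPM at Day 3 and 1235, 1576 and 2146 CPM in Day 8 replicates 1, 2 and 3. Saline replicate 1 was thus above Day 8 replicate 2. Pgr, the most abundant over the libraries together, was 726 and 307 CPM in saline and 435, 188 and 246 CPM at Day 8. Its log2 fold change of -0.85 (SE 0.49) did not pass. Without Day 8 replicate 1, 9 of 17 were called higher and 1 lower, beside 3.44% and 3.25% of all genes. At Day 3, Ihh and its target Ptch1 were called lower of 16 genes tested and none was called higher, beside 2.68% and 2.02% of all genes. The list median was then -0.56.

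Of 13 oestrogen-responsive genes tested at Day 8, none was called higher and Ltf, lactoferrin, was called lower, beside 1.53% and 1.42% of all genes. The list median was -0.60. Ltf was 159 and 29.0 CPM in saline, 37.2 and 28.8 CPM at Day 3 and 31.6, 26.3 and 16.8 CPM at Day 8, so that saline replicate 1 set much of its difference. Without Day 8 replicate 1, 8 of 12 genes were called lower, beside 3.25% of all genes, and 2 of these passed an adjusted p of 0.1 by edgeR. The list holds several genes of one family, Sprr2a2, Sprr2a3, Sprr2b, Sprr2e, Sprr2f and Sprr2g. Since multiple alignments were counted, these genes may share reads, so a count of them is not a count of separate genes. How far they share reads was not tested. The summed level of the list was 1312 and 1290.0 CPM in saline, 2115 and 1899 CPM at Day 3 and 1311, 609 and 734 CPM in Day 8 replicates 1, 2 and 3. It was lowest in the Day 8 libraries where Ctla2a and S100g were highest. At Day 3 none of 13 genes was called, although the list median was 1.37. The part that hormonal state plays in the levels of the 6 genes was not tested, and the sources used here give no cycle stage.

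**Figure D4:**
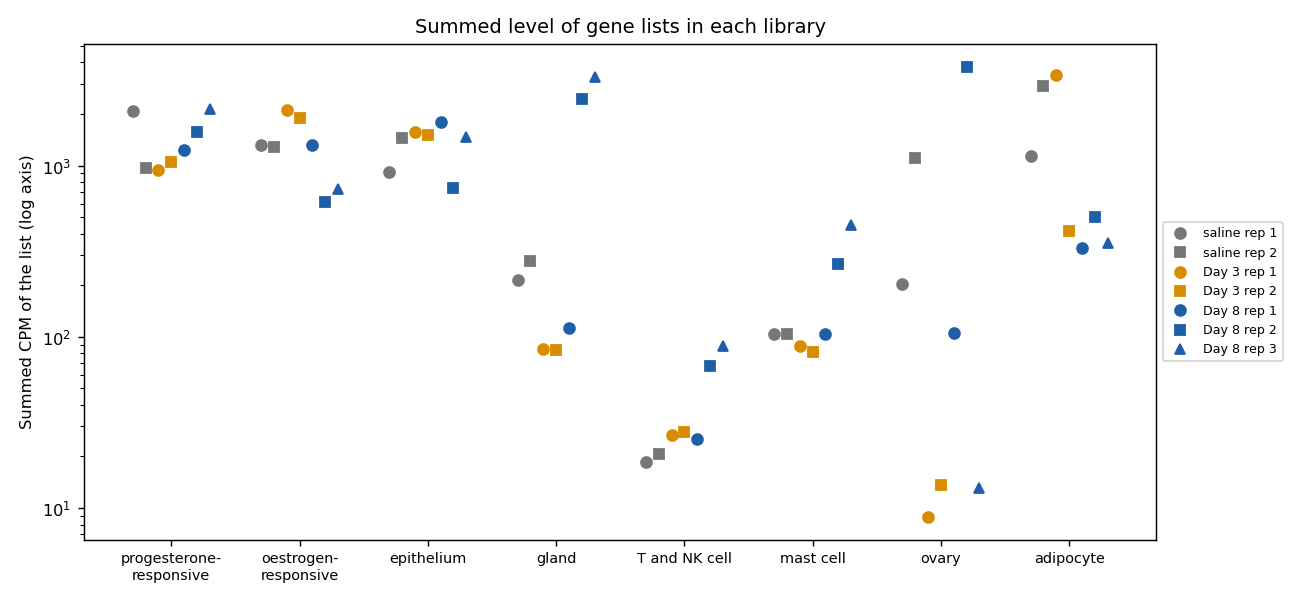
Summed CPM (TMM-scaled, logarithmic axis) of 2 hormone-responsive lists and 6 lists of cell type or tissue markers in each library (grey saline, orange Day 3, blue Day 8, with a circle for replicate 1, a square for 2 and a triangle for 3). The gland, T and NK cell and mast cell lists are highest in Day 8 replicates 2 and 3, while the ovary list is at 3789 CPM in Day 8 replicate 2 and 13.1 CPM in Day 8 replicate 3.

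The tissue of the libraries was checked against markers. Those of stroma, with Dcn as the most abundant over the libraries together, and of myometrium, with Mylk, were present in all 7 libraries, with none of their 10 and 8 genes at 0. The 12 epithelial markers were also above 0 in each library. Their summed level was 922 and 1446 CPM in saline, 1562 and 1509 CPM at Day 3, and 1808, 738 and 1470.0 CPM in Day 8 replicates 1, 2 and 3. It was lowest in Day 8 replicate 2, where Ctla2a was 6489.7 CPM and S100g was 2157 CPM, so those genes were high in the library with the least epithelial marker RNA. Krt8, Krt18 and Epcam were not called, with log2 fold changes of -0.03, 0.43 and -0.07. Of the 12 markers, 1, the claudin gene Cldn3, was called higher at Day 8, beside 1.53% of all genes. Cldn3 was 43.0 and 59.8 CPM in saline and 77.7, 124 and 261 CPM at Day 8. Without Day 8 replicate 1, 2 of the 12 markers were called higher and 1 lower, beside 3.44% and 3.25% of all genes. The list median was then -0.43, in place of -0.08. In bulk tissue, a change in the number of cells of one type and a change in the RNA per cell cannot be told apart.

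The gland list, summed, was 215 and 276 CPM in saline, 84.4 and 84.2 CPM at Day 3 and 112, 2459 and 3295 CPM in Day 8 replicates 1, 2 and 3. Most of the rise came from Spink1, Prss29 and Prss28, a protease inhibitor and a pair of implantation serine peptidases, which were the only 3 of 8 gland genes called at Day 8, all higher, beside 1.53% of all genes. Spink1 was at most 0.846 CPM in the saline, Day 3 and Day 8 replicate 1 libraries and 1305 and 2015 CPM in Day 8 replicates 2 and 3. Prss29 was at most 0.483 CPM in those libraries and 646 and 932 CPM in Day 8 replicates 2 and 3. Prss28 had no counts in saline or in Day 8 replicate 1, 126 and 192 CPM in Day 8 replicates 2 and 3, and a mean over all 3 Day 8 libraries at least 327-fold higher than a floor of 3 counts in each saline library. The list median was 0.80 also with Prss28 at that bound. Foxa2, the transcription factor that marks gland cells, was 11.4 and 4.78 CPM in saline and 8.60, 13.4 and 16.1 CPM at Day 8, a log2 fold change of 0.64 (SE 0.49). The other gland genes did not pass the test either, and their groups overlapped. Sox9, a transcription factor, was 16.7 and 46.4 CPM in saline and 20.1, 67.1 and 101 CPM in Day 8 replicates 1, 2 and 3, a log2 fold change of 0.97 (SE 0.71). Cxcl15 was 31.6 and 17.1 CPM in saline and 21.6, 10.4 and 20.1 CPM in Day 8 replicates 1, 2 and 3, and Aldh1a1 was 153 and 206 CPM in saline and 61.4, 291 and 18.0 CPM at Day 8. The log2 fold changes of Cxcl15 and Aldh1a1 were -0.51 (SE 0.44) and -0.57 (SE 0.95), and that of Lif, a cytokine needed for implantation, was -0.76 (SE 1.13). Among the 8 gland genes, 4 were called higher and none lower without Day 8 replicate 1, beside 3.44% and 3.25% of all genes, and 3 of them also passed an adjusted p of 0.1 by edgeR.

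Markers of T and NK cells and of mast cells were examined because Ctla2 genes are known from activated T cells and mast cells, and several of them were higher in the same Day 8 libraries. Of 8 T and NK cell genes tested, Ncr1, Klrb1c, Gzma and Gzmb were called higher at Day 8, beside 1.53% of all genes. Ncr1, a receptor of NK cells, was 1.33 and 2.01 CPM in saline and 4.07, 11.2 and 14.7 CPM in Day 8 replicates 1, 2 and 3. The summed level of the 12 listed genes was 18.6 and 20.7 CPM in saline, 26.6 and 27.9 CPM at Day 3 and 25.2, 67.6 and 87.8 CPM at Day 8. Klrb1c was the most abundant over the libraries together, with Gzmb above it in Day 8 replicates 2 and 3. The T cell marker Cd3e was at or below 0.362 CPM in every library. Cd3d was 2.295 and 0.574 CPM in saline and 1.395, 1.505 and 1.76 CPM in Day 8 replicates 1, 2 and 3. Cd3g was 0.121 and 1.15 CPM in saline and 0.581, 1.34 and 1.86 CPM at Day 8, and neither was called. Summed mast cell markers were 104 and 104 CPM in saline, 88.8 and 81.7 CPM at Day 3 and 104, 265 and 447 CPM at Day 8. Most of that sum was Hdc, the only one of 7 tested mast cell genes called, and Ms4a2 was at 0 counts in 4 of the 6 libraries with counts. If Day 8 replicate 1 was left out, 5 of 8 T and NK cell genes and 5 of 7 mast cell genes were called higher, beside 3.44% of all genes. Their part in the level of Ctla2a was not tested.

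RNA of other tissues was present in some libraries. The summed ovary markers, with Hsd3b1 the most abundant over the libraries together, were 202 and 1111 CPM in saline, 8.83 and 13.5 CPM at Day 3 and 106, 3789 and 13.1 CPM in Day 8 replicates 1, 2 and 3. In Day 8 replicate 3, Hsd3b1 was 0.414 CPM and Cyp11a1 0.104 CPM, and 6 of the 12 ovary genes were at 0 counts, and Ctla2a, Ctla2b, Pla2g10, Il13ra2 and S100g had their highest level there. None of 11 ovary genes was called at Day 8, and 7 were called lower at Day 3, beside 2.68% of all genes. Summed oviduct markers, most of them Ovgp1, were 642 and 726 CPM in saline, 890 and 966 CPM at Day 3 and 507, 859 and 436 CPM at Day 8, and none of the 7 was called. All 8 adipocyte markers were called lower at Day 8, beside 1.42% of all genes. Their sums were 1142 and 2926 CPM in saline, 3366 and 416 CPM at Day 3 and 329, 501 and 354 CPM at Day 8. Fabp4, the most abundant over the libraries together though below Cfd in some of them, was 196 and 1417 CPM in saline. None of the 10 stroma and 7 endothelium markers was called. Of 8 myometrium markers, Actg2 and Des were called higher at Day 8, beside 1.53% of all genes. When Day 8 replicate 1 was left out, 6 of the 8 myometrium markers and 1 of the 10 stroma markers were called higher, and 7 of the 8 adipocyte markers were called lower, beside 3.44% and 3.25% of all genes.

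Genes whose profile over the 7 libraries was most like the mean of the 6 scaled profiles were found by Pearson's r on the quantile-normalized log2 scale, among 12192 genes. With 7 points, of which Day 8 replicates 2 and 3 lie far from the others, these r values describe likeness and carry no test. The first was Sgms2, a sphingomyelin synthase, at an r of 0.996, with 28.9 and 38.7 CPM in saline, 54.9 and 48.3 CPM at Day 3 and 68.0, 146 and 205 CPM at Day 8. Next came Tmed3, a gene of secretory cargo transport, at 0.992, with 74.5 and 81.7 CPM in saline and 117, 160.1 and 191 CPM at Day 8. Gzma, Dll4, Ncr1, Cebpd, Plac8 and AW112010 followed at values from 0.987 down to 0.982. Unlike in Ctla2a, the levels of Sgms2 and Tmed3 lay in steps, with the Day 3 libraries and Day 8 replicate 1 between saline and the other Day 8 libraries.

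Single genes had different companions. Ctla2a was most like Errfi1, a feedback inhibitor of EGF receptors, at an r of 0.995, and the gland gene Spink1, at 0.994. Errfi1 was 12.4 and 10.4 CPM in saline and 11.04, 65.4 and 75.5 CPM in Day 8 replicates 1, 2 and 3. Ctla2b was most like Trim12c and Peli2, at 0.993 and 0.992. S100g was most like Cd52 and Sult1d1, at 0.993 and 0.990, and Sult1d1 was 18.1 and 21.3 CPM in saline, 10.9 and 10.8 CPM at Day 3 and 52.8, 196 and 278 CPM at Day 8. Pla2g10 was most like Prr15l and Ptpn18, at 0.988 and 0.971, and Il13ra2 like Mien1 and Ncr1, at 0.996 and 0.986. Trpv6 was most like Mnd1, a meiotic recombination gene, and Tmem219, at 0.989 and 0.986. Tmem219 was 23.2 and 27.6 CPM in saline, 30.5 and 33.6 CPM at Day 3 and 33.2, 19.4 and 27.4 CPM at Day 8, with the lowest level in Day 8 replicate 2 as in Trpv6.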

How the data were processed

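QuantSeq 3′ libraries were made from 500 ng of total RNA of 7 uterine samples. The authors used Bowtie2 for alignment and Bedtools to count reads per gene, multiple alignments included, and edgeR to normalize them; the submitters' processing notes name mm10 and hg19, with no role given, and versions and annotation are not given in the sources used here. For 6 libraries the authors deposited raw counts per gene symbol. The table deposited for Day 3 replicate 1 holds log2 of a normalized count plus 1, and after division by 1.0515 the values between 0.5 and 15 lay within 0.1 of a whole number in 97.6% of 3275 cases. Of 23282 rows, 35 symbols stood on more than one row and were kept apart.

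For Day 8 and saline, edgeR 4.0.16 was run (glmQLFTest after glmQLFit, TMM, filterByExpr) on the 6 count libraries in 3 groups. Day 3 was compared with saline by limma 3.58.1 (eBayes with trend) on log2(normalized count + 1), quantile-normalized over 7 libraries, for genes with at least 10 normalized counts in at least 2 libraries; such differences understate changes of low genes. R 4.3.3 and DESeq2 1.42.0 (an alternative) were also used. A call was a 2-fold change at a P of 0.05 before adjustment, and stricter calls used an adjusted p (Benjamini-Hochberg) of 0.1. A floor of 3 counts was 0.244 to 0.434 CPM of the library totals, for counting error alone, and the common biological coefficient of variation was 42.2%. CPM were divided by TMM factors from 0.896 to 1.20 over 7 libraries. Without TMM the median Day 8 log2 fold change over all genes shifted by -0.26, a comparison added after seeing the data. Scripts were tested on simulated data. Promoters came from RefSeq (GRCm38.p6) and gene positions from GENCODE M21 (GRCm38); all 6 genes matched.

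The 6 genes and the gene lists were chosen with earlier results of these data known. Named genes were the 6, their neighbours in the Day 8 ranking, list genes called in either comparison, fixed examples, and the 8 genes most like the mean profile with 2 for each gene (mean log2 of at least 5); of the called genes, the text gives the ones its lists turn on. One gene of the interleukin list is not reported here.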

Additional observations from a re-analysis of the deposited data

Results flagged for a closer look

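S100g was the one gene that lay on opposite sides of saline at the 2 times in every library, on the quantile-normalized log2 scale. Its mean difference from saline was -0.38 at Day 3 and 2.88 at Day 8. The difference between these effects was not tested, because the Day 8 values chose the gene. In CPM scaled by TMM, Day 3 replicate 1 was 153.5 CPM against 153.1 and 151.3 CPM in saline, so on that scale the Day 3 libraries were not both below. In CPM, Pla2g10 showed this order instead, with 0.317 and 0.728 CPM at Day 3, 0.846 and 1.15 CPM in saline and 6.28 to 21.2 CPM at Day 8, a Day 3 gap within counting error for replicate 2.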

How the results depend on the processing

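Of 211 values under alternative settings, 181 stayed within the limits set for them, 26 moved and 4, all Day 3 differences, changed direction. Within the limits, the Day 8 value of Trpv6, which has no test, changed sign from 0.54 to -0.204 with Day 8 replicate 1 counted with Day 3 and to -0.199 without that library. The number of genes called at Day 8, 453, was 1094 with Day 8 replicate 1 counted with Day 3 and ranged from 229 to 1527 when each library was left out in turn, the highest without saline replicate 2, with 1027 without Day 8 replicate 1 and 286 without saline replicate 1. The number called at Day 3, 704, was 468 with at least 10 normalized counts in every library and ranged from 270 to 2850 when each library was left out, the highest without saline replicate 2. By the adjusted p, the count at Day 3 went from 0 to 1947 without saline replicate 2 and to 36 without the filter on low values, and the count at Day 8 went from 0 to 58 with Day 8 replicate 1 counted with Day 3, to 49 by DESeq2 and to 15 without Day 8 replicate 1. A lone remaining library is assumed to vary like the other groups. At Day 3, Pla2g10 changed from -0.41 to 0.65 and S100g from -0.38 to 0.14 with Day 8 replicate 1 counted with Day 3. With each library left out, Ctla2a at Day 3 ranged from -0.077 to 0.506 and Pla2g10 from -0.777 to 0.026. None of the 6 genes passed an adjusted p of 0.1 by limma at Day 3 in any alternative, with adjusted p from 0.157 to 1.0 for Il13ra2. The cause of these changes was not tested.

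Replicate numbers are shared between groups, and the numbers were not taken as pairs. Same-numbered libraries deviated from their group means with correlations across genes between -0.17 and 0.01. In a group of 2 libraries the deviations mirror each other, so saline against Day 3 gave the same value, -0.055, for both numbers. These correlations cannot show whether 2 libraries came from the 2 horns of 1 animal, which the labels do not state. With the replicate number as a block, 157 genes were called at Day 8. Under this block the Day 8 log2 fold changes were 2.69 for Ctla2a, 2.36 for Ctla2b, 2.92 for Pla2g10, 2.88 for Il13ra2, 2.59 for S100g and 0.24 for Trpv6, in place of 4.73, 4.04, 3.58, 3.49, 3.58 and 0.54, so that Ctla2a was no longer the largest. By limma after quantile normalization they were 3.425 for Ctla2a, 3.17 for Ctla2b, 3.491 for Pla2g10, 3.36 for Il13ra2, 2.88 for S100g and 0.27 for Trpv6. The Day 3 difference of Il13ra2 stayed at 1.96 with the replicate block, while its unadjusted P ranged from 0.00168 to 0.177 over all alternatives.

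Depth limits Pla2g10, Il13ra2 and Trpv6 the most, with 7 to 21 counts in saline replicate 1. The Day 8 folds of Ctla2a and Ctla2b rest on Day 8 replicates 2 and 3.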
